A study of Arabidopsis thaliana with 88 samples.

Results

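The libraries described here are the 29 soil shoot libraries, of 88 in the series, whose title and genotype label agreed. Each carries a library number in its deposited name, and for every gene the expression level was regressed on that number, with a separate mean for each combination of genotype and ploidy. The result is a slope per gene, given as the log2 change per 10 library numbers, so that a positive slope stands for a gene that rose along the numbers and a negative slope for a gene that fell. The numbers ran from 33 to 130. One further shoot library, whose title and genotype label disagreed, was not part of the regression.

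The study compared Arabidopsis plants with the usual 2 chromosome sets (2x) and plants in which the genome had been doubled with colchicine (neo-tetraploids, 4x), in order to find genes linked to the raised leaf potassium of 4x plants. The shoots came from plants grown for 5 weeks on peat soil in short days without an added stress, with a single plant in each library. The 5 genotypes, each as 2x and 4x, were wild type Col-0, sos3-2 (a mutant of a calcium sensor in sodium tolerance), esb1-1 (a mutant of a Casparian strip protein of the root), rhd6-3/rsl1-1 (a double mutant in root hair formation) and a line labelled chx25-3, for which the paper uses another mutant name. Each group had 3 shoot libraries, except 4x chx25-3, which had 2. The mutations are carried by the whole plant and the 4x lines descend from colchicine-treated plants. The titles carry a single line code in each 4x mutant group, so that such a group is likely the offspring of 1 treated plant, and they carry no line code for 4x wild type.

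The plant circadian clock is a circuit of transcription factors that repress each other in turn over the day. CCA1 and LHY, which peak around dawn, repress genes of the evening, the PRR proteins follow each other through the day and repress CCA1 and LHY, and the evening complex of ELF3, ELF4 and LUX acts around and after dusk. In leaves the clock times genes of light capture, starch turnover, cold response and growth. The labels give neither the hour nor the order in which plants were harvested, so that the library number is used here only as a position in the numbering, and whether it follows the time of harvest was not tested.

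The position in the numbering overlaps with other properties of the libraries. For description the order was cut into a first stretch of 9 libraries (33 to 53), a middle stretch of 10 (58 to 84) and a last stretch of 10 (88 to 130). Replicate 1 made up 8 of the 9 libraries of the first stretch, replicate 2 made up 8 of the 10 of the middle stretch and replicate 3 made up 8 of the 10 of the last. The sample number given at sequencing restarts after library 53, so that the first stretch is 1 series of sample numbers and the other two stretches are the second. Within every group of genotype and ploidy, replicate number rose with library number, so that their order cannot be told apart. A few libraries had another replicate number than most of their stretch. They were library 53 (2x esb1-1 replicate 2) in the first, and libraries 70 (2x esb1-1 replicate 3) and 84 (4x sos3-2 replicate 3) in the middle. In the last they were replicate 1 (library 92) and replicate 2 of 4x rhd6-3/rsl1-1. These libraries do not break the order within their groups. The stretches held 6, 5 and 4 libraries of 2x plants and 3, 5 and 6 libraries of 4x plants. By genotype they held 1, 1 and 4 libraries of rhd6-3/rsl1-1, 3, 2 and 1 of esb1-1 and 2, 3 and 1 of sos3-2. Of chx25-3 they held 1, 2 and 2, and of wild type 2 each. Ranges and medians of stretches are not adjusted for genotype or ploidy.

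Some clock genes carry short DNA motifs for clock proteins upstream of their start. The windows below were chosen, after the matches were seen, to show such motifs in clock genes that moved along the numbers. The windows of ELF4, ELF3, GI, CHE, RVE8, RVE4, LNK1, LNK2 and LNK4, which also moved, hold none of the motifs and are not shown. All windows were taken from the RefSeq annotation of assembly TAIR10.1 as the 300 bases upstream of the annotated gene start. They are written 5′ to 3′ on the strand of the gene, and none of those shown touches another annotated gene. Capitals mark matches, on either strand, to 3 motifs: the evening element AAAATATCT, the CCA1-binding site AAAAATCT and the G-box CACGTG, which is bound by bZIP and bHLH factors. No motif contains another. The windows are chr5:8358547-8358846 (minus strand) for PRR5, chr5:24674663-24674962 (plus strand) for TOC1, chr3:17182742-17183041 (plus strand) for LUX, chr1:25508339-25508638 (plus strand) for FKF1, chr2:19245291-19245590 (plus strand) for CCA1 and chr1:37872-38171 (minus strand) for LHY.
PRR5: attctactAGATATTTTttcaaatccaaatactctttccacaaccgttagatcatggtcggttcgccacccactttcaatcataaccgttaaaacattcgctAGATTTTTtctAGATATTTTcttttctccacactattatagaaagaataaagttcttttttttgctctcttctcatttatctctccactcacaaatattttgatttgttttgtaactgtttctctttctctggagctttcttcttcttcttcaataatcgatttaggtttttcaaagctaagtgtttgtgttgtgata
TOC1: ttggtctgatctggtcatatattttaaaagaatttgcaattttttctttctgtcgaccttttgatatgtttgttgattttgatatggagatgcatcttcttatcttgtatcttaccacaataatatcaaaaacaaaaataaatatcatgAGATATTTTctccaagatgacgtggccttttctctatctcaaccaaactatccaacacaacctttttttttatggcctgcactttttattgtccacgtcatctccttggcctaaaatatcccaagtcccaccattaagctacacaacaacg
LUX: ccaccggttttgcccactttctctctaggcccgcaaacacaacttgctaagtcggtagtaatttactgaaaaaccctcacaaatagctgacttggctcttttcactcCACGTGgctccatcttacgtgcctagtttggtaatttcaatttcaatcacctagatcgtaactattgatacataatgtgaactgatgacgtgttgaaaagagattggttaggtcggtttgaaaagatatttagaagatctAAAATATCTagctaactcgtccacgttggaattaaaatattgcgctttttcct
FKF1: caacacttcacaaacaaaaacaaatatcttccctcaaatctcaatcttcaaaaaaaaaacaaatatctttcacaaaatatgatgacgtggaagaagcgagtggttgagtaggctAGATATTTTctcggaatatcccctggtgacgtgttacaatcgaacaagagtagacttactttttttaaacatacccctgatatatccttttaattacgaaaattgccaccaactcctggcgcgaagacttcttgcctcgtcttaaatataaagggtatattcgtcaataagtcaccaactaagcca
CCA1: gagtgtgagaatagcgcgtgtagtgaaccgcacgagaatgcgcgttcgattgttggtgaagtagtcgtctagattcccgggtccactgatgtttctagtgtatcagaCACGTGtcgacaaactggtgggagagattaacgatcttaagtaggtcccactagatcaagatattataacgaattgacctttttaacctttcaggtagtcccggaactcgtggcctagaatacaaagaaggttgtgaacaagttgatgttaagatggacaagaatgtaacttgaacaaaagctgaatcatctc
LHY: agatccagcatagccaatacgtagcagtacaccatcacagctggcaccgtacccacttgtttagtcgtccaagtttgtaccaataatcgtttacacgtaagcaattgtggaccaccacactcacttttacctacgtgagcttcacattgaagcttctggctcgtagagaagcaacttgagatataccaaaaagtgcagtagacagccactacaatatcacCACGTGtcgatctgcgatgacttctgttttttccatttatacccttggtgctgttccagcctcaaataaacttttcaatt

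The PRR5 window holds 2 evening elements and 1 CCA1-binding site, the windows of TOC1 and FKF1 hold 1 evening element each, that of LUX an evening element and a G-box, and those of CCA1 and LHY 1 G-box each. Of the day and evening clock list, 5 of 12 windows held an evening element, against 1 of 14 windows of the morning list. Of the morning list, 7 of 14 windows held a G-box, against 1 of 12. Among 15430 windows of all genes tested, 3.09% held the evening element, 8.20% the CCA1-binding site and 8.07% the G-box. Among windows of genes called as rising, 175 of 2161 (8.10%) held the evening element, and among those of genes called as falling 53 of 2413 (2.196%). With a limit of 0.5 on the size of the slope, chosen after the slopes were seen, 25.96% of the rising and 1.92% of the falling windows held it, while the G-box was in 17.3% and 20.2% of them and the CCA1-binding site in 6.73% and 5.77%. A match is a description of letters in this window and not a measured binding site.

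Many shoot genes moved with the library number when replicate number was not in the model. Of 15945 genes tested, 6275 (39.4%) had an adjusted p under 0.05, 18.8% with a rising and 20.6% with a falling slope. Of all genes, 4711 (29.5%) also had a slope of at least 0.1 in size, and these are the genes called here. Of the called genes, 2204 (13.8% of all) rose and 2507 (15.7%) fell. The median slope over all genes was close to 0 (-0.00094), and the middle of the distribution ran from -0.071 to 0.064. Library number accounted for a median of 17.4% of the variance of log2 expression within groups, and for more than 50% of it in 2819 genes. In 1094 genes (6.86%), the values of the first and the last stretch did not overlap at all, with the last stretch above the first in 498 (3.12%) and below it in 596 (3.74%).

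Within the second series of sample numbers alone, which leaves 20 libraries, 1880 genes were called (960 rising, 920 falling), and 1311 genes were called in the same direction as over all libraries. With the series as a factor, 1514 genes were called, of which 1216 had been called before. The first series alone holds 9 libraries of 8 groups and could not be fitted. All slopes of named genes below are from the fit over all 29 libraries, and of the 79 named genes called there, 22 were tested but not called within the second series alone: RVE7, PRR9, PRR7, CHE, HY5, TPS10, LHCB1.4, LHCB1.5, LHCA1, JAZ10, JAZ5, ERF6, TCH3, HAI1, RAB18, UF3GT, EF1A, PYK10, AT5G54130, BBX32, UGT78D2 and PSAO. The slope of JAZ5 turned from -0.38 to 0.02. RVE2 and HSFA2 did not pass the expression filter there and were not tested.

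With replicate number as a further factor, which overlaps with library number as given above, 11 of the 4711 calls were left (1932 genes passed an unadjusted p of 0.05). They include CCA1, LHY, LNK2 and LNK3 of the morning clock, and none of the 12 day and evening clock genes. Of the 79 named genes called over all libraries, 6 kept their call, namely CCA1, LHY, LNK2, LNK3, COL2 and ELIP2. The directions given below for all other named genes, in the clock lists and outside them, thus hold for library number and replicate number together. Among the gene lists, counts of members that rose or fell stand against 13.8% and 15.7% of all genes.

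The libraries were also placed by a principal component analysis of log2 expression after subtraction of the group means. The first component held 38.4% of the remaining variance, and its scores followed the library number (Pearson r = 0.96, Spearman rho = 0.96, 29 libraries, also with group means removed). The correlation is given as a description, since libraries that are close in number also share replicate number and sample-number series. The second component held 14.2% and had an r of -0.20 with library number.

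**Figure D1:**
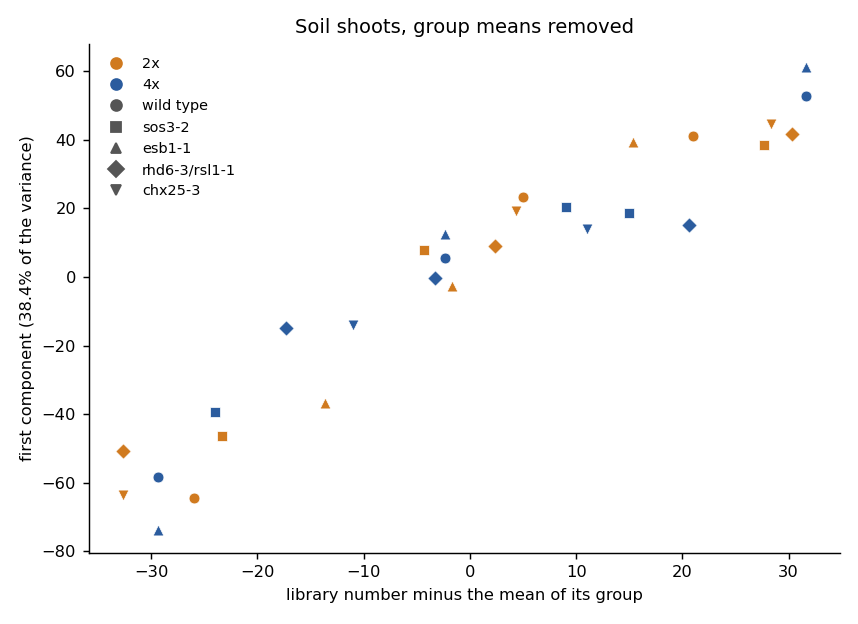
Scores of the 29 soil shoot libraries on the first principal component (vertical axis, 38.4% of the variance left after subtraction of group means) against library number minus the mean number of the group (horizontal axis). Each point is 1 library, colored by ploidy and shaped by genotype, and within each group the scores are higher at higher library numbers, except in 4x sos3-2, where library 84 scores 18.7 and library 78 20.5.

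The morning genes of the clock fell. Of 14 members, 11 fell, 2 rose (PRR7 and RVE7) and 1 (RVE6) was not called, with a median slope of -0.44 against -0.00094 over all genes. CCA1, a MYB repressor that peaks at dawn, is the clearest case. In wild type its level was 195 CPM (read counts scaled to a common library size, with a correction for composition) in library 33, 115 in library 51, 45.4 in library 60, 26.9 in library 82, 7.82 in library 94 and 5.83 in library 98. Over all groups, CCA1 ran from 82.7 to 244 CPM in the first stretch with a median of 164, from 14.4 to 59.4 in the middle stretch with a median of 36.9, and from 1.33 to 11.2 in the last with a median of 6.93. The 3 stretches did not overlap. The slope was -0.81 ± 0.03 (SE, adjusted p = 2.3e-15), and the median of the first stretch was 23.64-fold that of the last.

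LHY, the partner of CCA1, fell more steeply. Its level ran from 177 to 726 CPM in the first stretch (median 494), from 9.66 to 211 in the middle stretch (median 43.2) and from 1.45 to 8.72 in the last (median 4.68). The highest last value was below the lowest middle value. The slope was -1.18 ± 0.06 (adjusted p = 9.2e-13), and the medians of the first and last stretch differed by 105.7-fold.

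Activators of evening genes fell as well. RVE8, a MYB activator of evening genes, had medians of 52.1, 9.51 and 2.92 CPM in the 3 stretches and a slope of -0.75 ± 0.04. Its coactivators LNK2, LNK3 and LNK4 had slopes of -0.55, -0.58 and -0.49, and LNK1 one of -0.25. LNK3 went from 76.6 to 152 CPM in the first stretch to 3.51 to 21.1 CPM in the last. Of the close relatives of RVE8, RVE4 fell by 0.24 while RVE6 had a slope of -0.09 (adjusted p = 0.047) under the size limit. RVE1, a related MYB factor tied to auxin rhythms, fell by 0.90, from a median of 57.6 CPM in the first stretch to one of 2.31 in the last. RVE2 was near the detection limit (at most 4.50 CPM) with a slope of -0.29, and it did not pass the expression filter in the second series alone. RVE7 rose by only 0.11 ± 0.03, and its stretches overlapped widely.

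The PRR genes, whose proteins follow each other through the day, moved in different directions. PRR9, the earliest, fell (slope -0.39 ± 0.05, medians of 9.49, 4.48 and 2.39 CPM). PRR7 rose, with 25.5 to 73.03 CPM in the first stretch, 88.7 to 147 in the middle and 95.96 to 191 in the last (slope 0.24 ± 0.04). Within the second series alone the slope of PRR7 was 0.09 and not called. PRR5 ran from 0.37 to 1.82 CPM in the first stretch, from 0.34 to 24.5 in the middle and from 20.7 to 60.5 in the last, so that the last stretch lay above nearly all earlier libraries (slope 0.96 ± 0.12, adjusted p = 1.2e-06). TOC1, the last of the series to peak, had 0.36 to 4.42, 1.59 to 9.00 and 10.2 to 41.5 CPM (slope 0.41 ± 0.06). PRR3 did not pass the filter.

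**Figure D2:**
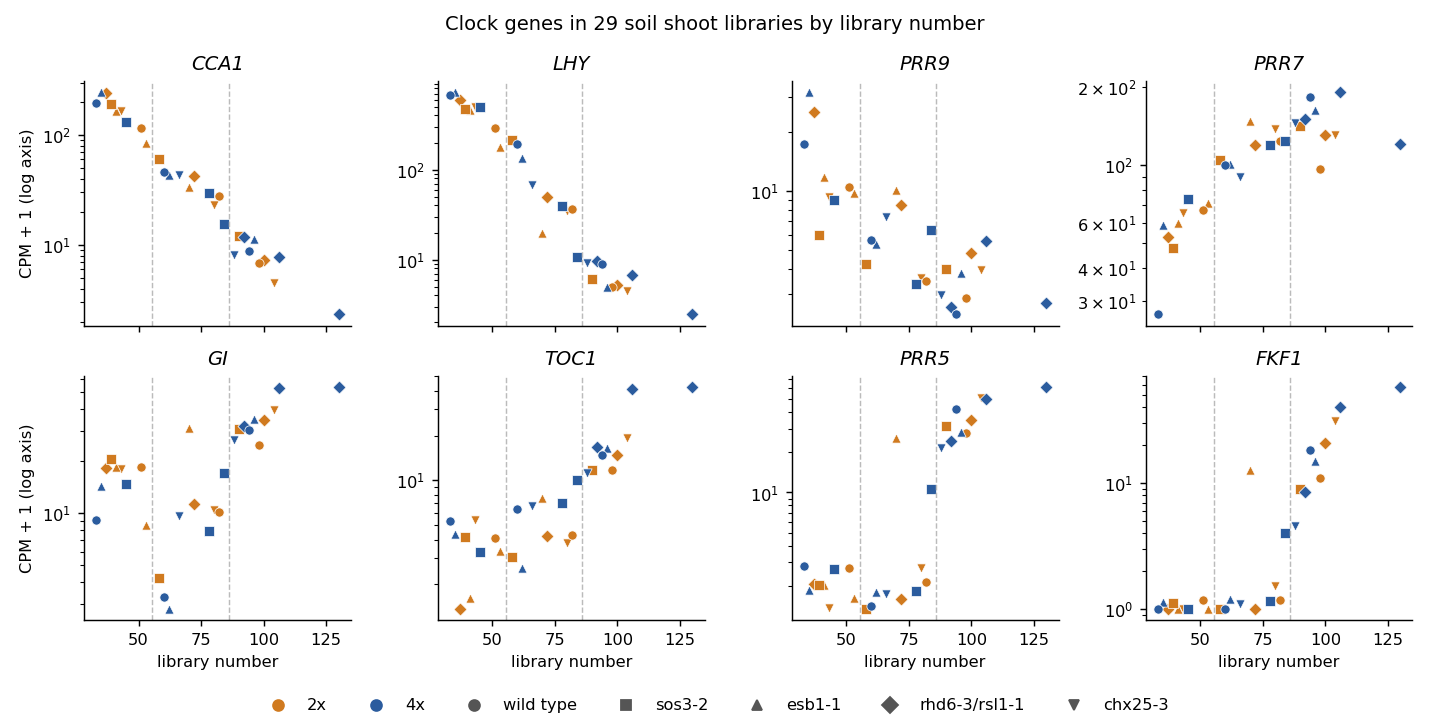
Levels of 8 clock genes (CPM plus 1 on a log axis) in the 29 soil shoot libraries against library number, with dashed lines between the first, middle and last stretch. Points are single libraries, colored by ploidy and shaped by genotype. CCA1 falls from a median of 164 CPM in the first stretch to 6.93 in the last, while FKF1 is at most 11.7 CPM before the last stretch, with that value in library 70.

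The evening genes rose. Of 14 members of the day and evening list, 12 passed the filter, 10 rose and none fell, with a median slope of 0.44. FKF1, a blue light receptor that controls flowering by day length, had the largest slope of all genes tested (1.63 ± 0.15). It ran from 0 to 0.19 CPM in the first stretch and from 0 to 11.7 CPM in the middle one, with medians of 0 and 0.18, and from 3.55 to 56.7 CPM in the last (median 15.6). It had no read in 9 of 29 libraries, so that the size of its slope depends on the small count that the fit adds. All last values exceeded all first values. The highest middle value, 11.7 CPM, was that of library 70, and the next was 3.00 CPM, in library 84.

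Library 70 stood apart from its neighbours for genes that rose. GRP7 was at 2235 CPM in library 70, against 44.1 CPM in library 66 and 85.7 CPM in library 72, PRR5 was at 24.5 CPM against 0.74 and 0.61, and AT1G56300, a DnaJ-domain protein, at 61.3 CPM against 4.12 and 8.73. CCA1, at 32.7 CPM, lay somewhat below its neighbours (42.7 and 41.04 CPM), and LHY, at 18.7 CPM, below both (66.2 and 48.1 CPM). Libraries 70 and 84 were the replicate 3 libraries of the middle stretch. On the first principal component library 70 scored 39.3, while library 84 scored 18.7, below replicate 2 of its own group (library 78, 20.5). Replicates 1 and 2 of 4x rhd6-3/rsl1-1 lay with the other last libraries, with 2116 and 5762 CPM of GRP7 and 10.7 and 6.76 CPM of CCA1, and library 53, of replicate 2, had 68.9 CPM of GRP7 and the lowest CCA1 level of the first stretch, 82.7 CPM. Without library 70, 4565 genes were called for a slope.

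The genes of the evening complex moved alike. ELF4 ran from 0 to 0.87 CPM in the first stretch and from 3.23 to 82.2 in the last (slope 1.27 ± 0.10), LUX, its DNA-binding subunit, from 0 to 1.05 and from 2.91 to 37.5 (slope 0.87 ± 0.09), and ELF3, the scaffold, from 0 to 2.099 and from 4.52 to 11.3 (slope 0.44 ± 0.07). For ELF4, LUX and ELF3, the first and last stretch did not overlap. BOA, a relative of LUX, did not pass the filter. COR28 and COR27, which repress clock genes and link them to cold, rose by 1.25 and 0.43. The call of COR27 was lost in 6 of 29 fits without 1 library, COR28 had no read in 11 of 29 libraries, and for both genes the first and last stretch overlapped.

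GI, a scaffold for FKF1 and ZTL, had its lowest level in the middle stretch and not in the first. It ran from 7.58 to 19.5 CPM in the first stretch, from 1.79 to 29.97 in the middle (median 8.95) and from 23.7 to 52.7 in the last. Its slope was 0.19 ± 0.07 (adjusted p = 0.039) over all libraries and 0.78 within the second series, and its call was lost in 10 of 29 fits that left out 1 library. CHE, a TCP factor that binds the CCA1 promoter, rose by 0.28, mostly between the first stretch (median 40.2 CPM) and the middle one (114), and within the second series its slope was 0.06 and not called. ZTL, whose protein rather than transcript is known to cycle, and its relative LKP2 had slopes of -0.05 and -0.01 and were not called, ZTL under the size limit at an adjusted p of 0.028.

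Outputs of the clock and light signalling moved in both directions, with 4 of 17 tested members rising and 11 falling (median -0.33). GRP7, an RNA-binding protein that forms a feedback loop below the clock, rose by 1.05 ± 0.11. Its level in wild type was 60.9, 37.4, 53.3, 340, 3984 and 2648 CPM in libraries 33, 51, 60, 82, 94 and 98. Over all groups the first stretch did not exceed 72.4 CPM and the last was not below 1751. The transcript thus became one of the more abundant ones in the last libraries, with up to 80786 reads. COL2, a relative of the flowering regulator CONSTANS, fell from a median of 113 CPM to one of 4.02 (slope -0.80 ± 0.04). ELIP2, an early light-induced protein that protects chloroplasts under strong light, fell by 0.94, from 25.0 to 70.9 CPM in the first stretch to at most 1.98 in the last. HY5, a bZIP factor that drives light responses, fell by 0.69, and nearly all of its fall lay between the first stretch (median 16.96 CPM) and the middle one (3.16). Within the second series HY5 had a slope of -0.18.

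Genes of starch breakdown mostly rose, 13 of 17 members against 3 that fell (median 0.35). ISA3, a debranching enzyme, rose by 0.81 from a median of 1.402 CPM in the first stretch to 20.8 in the last, DPE1, the plastid disproportionating enzyme, by 0.69 from 1.65 to 28.3, and PHS2, a cytosolic glucan phosphorylase, by 0.61 from 15.4 to 162. For these genes the lowest last value was above the highest first value. The 3 that fell were members of the β-amylase family, BAM9, BAM3 (slope -0.44) and BAM1 (-0.23), while BAM4 (0.07) was not called. BAM9 had 25.8 to 282 CPM in the first stretch, 4.28 to 20.4 in the middle and 1.35 to 4.67 in the last (slope -1.02 ± 0.06). GBSS1, the granule-bound starch synthase that makes amylose, is not on that list and was named for the size of its fall, from 175 to 414 CPM in the first stretch to 3.51 to 15.7 in the last (slope -0.84 ± 0.05).

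Of 9 tested genes that are induced when sugar runs out, 1 was called, TPS10, with a slope of 0.22 (median of the list 0.06). ASN1, the dark-induced asparagine synthetase, had a slope of 0.21 (adjusted p = 0.16) and its highest value, 98.04 CPM, in library 82 of the middle stretch. BXL1 had a slope of -0.21 (adjusted p = 0.057).

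Photosynthesis genes had small slopes. Of 18 genes of the photosystem antenna, 6 rose and none fell (median 0.09), so that the share of members called was close to the 29.5% of all genes, with the largest slope, 0.29, in LHCB1.4 and 0.24 in LHCB1.2, chlorophyll-binding proteins of photosystem II. LHCB1.2 ran from 2082 to 5397 CPM in the first stretch and from 5495 to 11823 in the last. Reads of the near-identical LHCB1 copies may have been shared between them in the authors' counting. The slopes of the leaf markers RBCS1A and CA1 were -0.01 and -0.01 (not called), and of the 7 leaf markers 1, the Rubisco activase RCA, fell (slope -0.10), a call that was lost in 7 of 29 fits without 1 library. Of 9 root markers, PYK10 alone passed the filter, at a median of 9.53 CPM in the first stretch and 2.52 in the last.

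In nitrate assimilation, 3 of 5 genes fell and none rose. NIA2, the main nitrate reductase, ran from 1239 to 1616 CPM in the first stretch, from 473 to 1292 in the middle and from 208 to 955 in the last (slope -0.30 ± 0.04). NIA1 fell by 0.15 and GLU1, a ferredoxin-dependent glutamate synthase, by 0.11, whereas GLN2, the plastid glutamine synthetase, had a slope of -0.01.

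**Figure D3:**
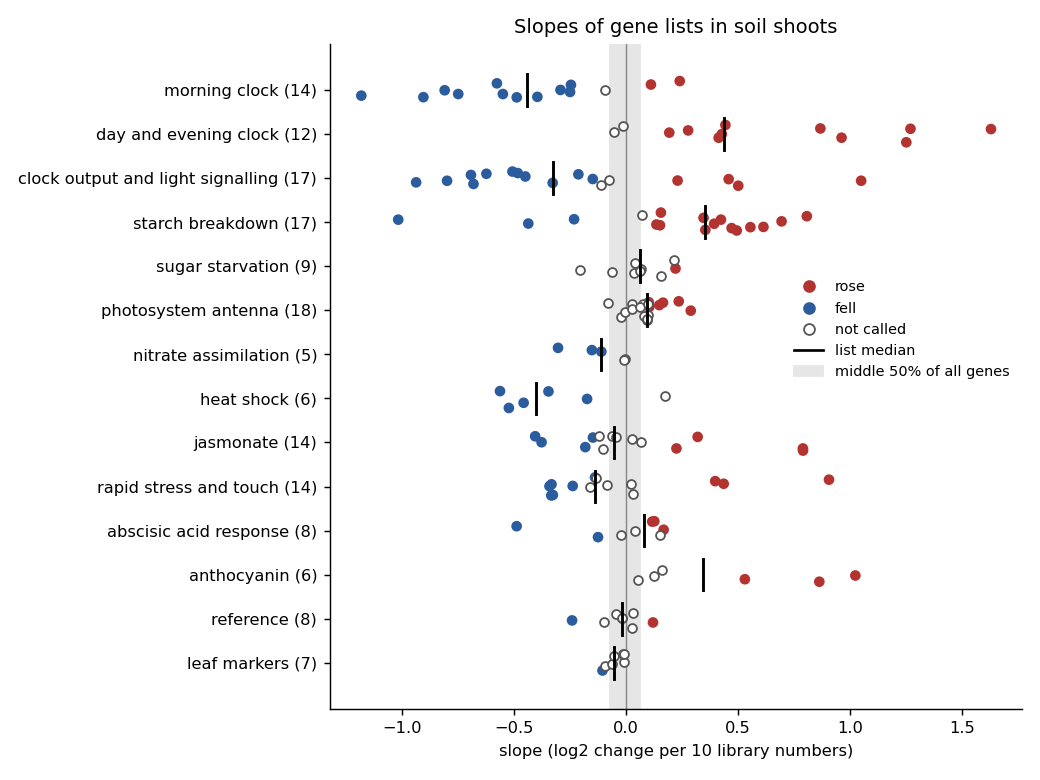
Slopes (log2 change per 10 library numbers, horizontal axis) of the members of 14 gene lists in soil shoots, with the number of members tested in parentheses. Filled points were called as rising or falling, open points were not called, black bars are list medians and the gray band spans the middle 50% of all genes. The medians are -0.44 for the morning clock and 0.44 for the day and evening clock.

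Stress genes did not move as 1 group. Of 6 tested heat shock genes, 5 fell, among them HSFA2 (slope -0.56), HSP17.8 (-0.52), HSP90.1 (-0.46) and HSP101 (-0.35). HSP90.1, a chaperone, had overlapping ranges of 7.74 to 163 CPM in the first stretch and 6.76 to 39.7 in the last, with the highest value of all, 180 CPM, in library 60. Of 14 jasmonate genes, 4 rose and 4 fell. The vegetative storage proteins VSP1 and VSP2 both rose by 0.79, but single libraries stood far apart (VSP2 reached 2647 CPM in library 98 against a last-stretch median of 154), and the repressors JAZ10 and JAZ5 fell by 0.40 and 0.38. Within the second series, the slope of JAZ5 was 0.02.

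The cold response factors CBF3 and CBF2, close relatives that may share some reads, rose by 0.91 and 0.44. CBF3 went from at most 2.24 CPM in the first stretch to 4.22 to 36.5 in the last. Of the other rapid stress and touch genes, ERF6 rose by 0.40 and TCH3, a calmodulin-like touch gene, fell by 0.34. In all, 3 of 14 of these rose and 6 fell. Of 8 abscisic acid response genes, 3 rose and 2 fell, a small list beside the 13.8% and 15.7% of all genes: HAI1, a phosphatase that restrains the response, fell by 0.49 and its relative HAI2 rose by 0.17, a call that was lost in 8 of 29 fits without 1 library, while RD29A had a slope of 0.15 (adjusted p = 0.19). Of 6 anthocyanin genes, DFR (slope 1.02), LDOX (0.86) and UF3GT (0.53) rose. These slopes rest on few libraries, since DFR had a median of 1.73 CPM in the last stretch and 117 CPM in library 100, and no read in 9 libraries. TT19, an anthocyanin transport gene, was not called (slope 0.16).

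Genes often used as references were not all flat. ACT2, an actin, fell from 319 to 643 CPM in the first stretch to 162 to 259 in the last, with no overlap (slope -0.24 ± 0.02, adjusted p = 1.7e-08). EF1A, an elongation factor, rose by 0.12. UBC9 (slope -0.095, under the size limit) and TIP41 (-0.04) were not called, and the 8 reference genes had a median of -0.02.

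Of the genes with the largest slopes that the same-sign rule selected, several have no assigned role. Among the rising ones, AT1G56300, annotated as a DnaJ-domain protein, ran from 0 to 2.11 CPM in the first stretch and from 64.4 to 102 in the last (slope 1.37 ± 0.12). AT2G39920, an acid phosphatase of the HAD family, ran from 0 to 4.84 and from 19.9 to 32.1 CPM. AT1G07050, a protein with the CCT motif found in CONSTANS and TOC1, had a slope of 1.498 ± 0.15, and AT4G16146, AT1G20030, AT4G26670, MEE14, AT4G30650 and AT3G62550 had slopes from 0.85 to 1.04. MEE14 had medians of 8.68, 89.1 and 459 CPM. AT1G20030, a thaumatin-like protein, had medians of 0.59, 3.39 and 32.05 CPM.

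Among the falling ones were AO, the L-aspartate oxidase that starts the synthesis of NAD (slope -0.88, medians of 30.6, 3.19 and 1.15 CPM), BBX32, a B-box protein of light signalling (-0.82), AT2G27420, a cysteine proteinase (-0.88), AT5G54130, a calcium-binding nuclease family member (-0.86), and AT5G15948 (-0.84), for which the annotation used has no entry. The slopes of AT2G27420, AO, AT5G54130 and BBX32 within the second series were -0.45, -0.44, -0.36 and -0.28, smaller in size than over all libraries.

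**Figure D4:**
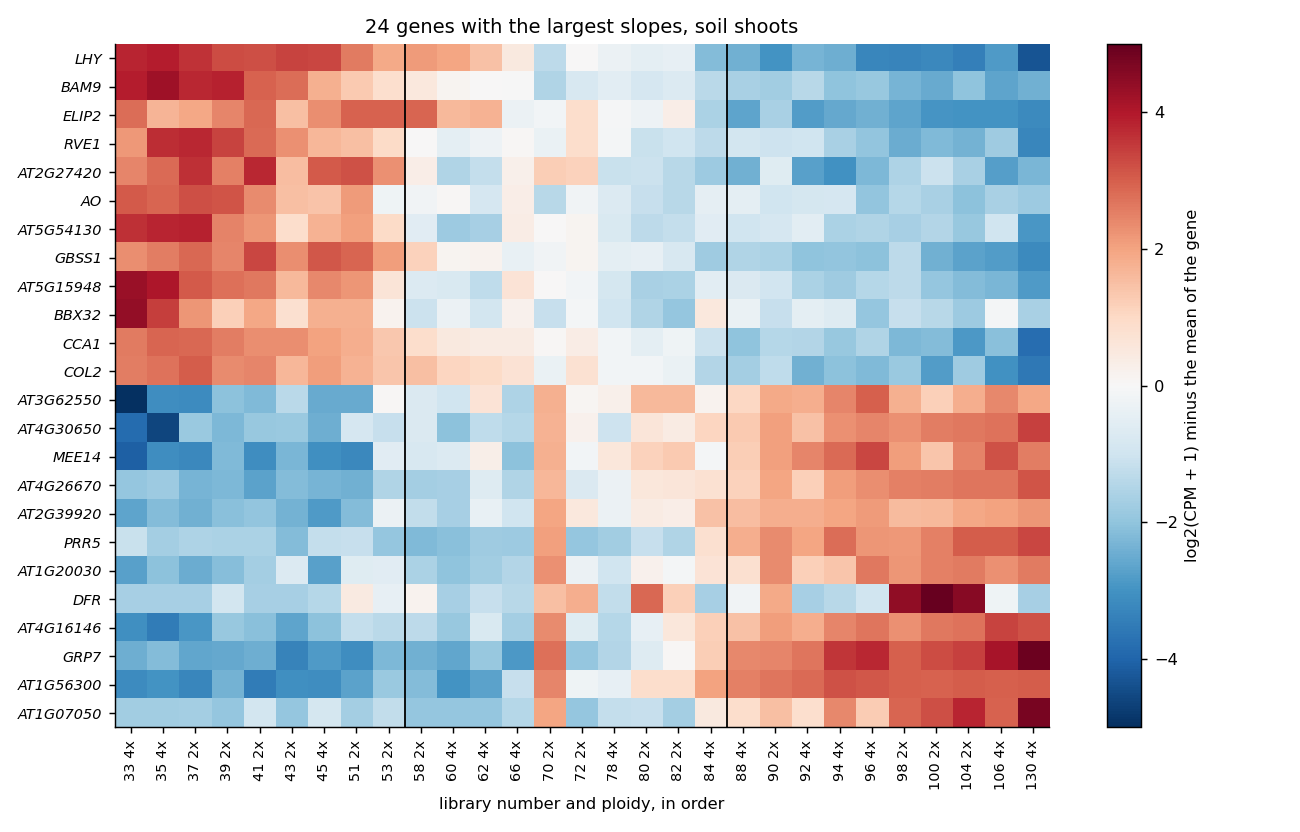
Levels of the 12 falling and 12 rising genes with the largest slopes, as log2(CPM + 1) minus the mean of the gene (color), in the 29 soil shoot libraries in order of library number (columns, with ploidy). Black lines part the first, middle and last stretch. The column of library 70 resembles the last stretch for most rising genes, with GRP7 at 2235 CPM and PRR5 at 24.5 CPM.

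A bend along the order was tested with the rank of the library number and its square. Of 15945 genes, 982 (6.16%) were called, 444 of them (2.78%) lowest and 538 (3.37%) highest in the middle, and 3396 had an unadjusted p under 0.05. The count ran from 577 to 1213 when 1 library was left out, with the lowest without 2x chx25-3 replicate 2 and the highest without 2x wild type replicate 1. EXPA16, an expansin that loosens cell walls, was highest in the middle, with medians of 6.41, 27.3 and 8.88 CPM, and ST2A, a sulfotransferase of jasmonate metabolism, had medians of 5.07, 26.4 and 16.6 CPM. AIF1, a bHLH factor of brassinosteroid signalling, had medians of 7.55, 6.69 and 23.1 CPM. AIF1, HY5, UGT78D2, a glucosyltransferase of flavonoids, and ELIP2 were called for a bend as well as for a slope, UGT78D2 with medians of 71.5, 8.33 and 6.72 CPM. CCA1 was not called for a bend (adjusted p = 0.72), which does not show that it followed a straight line.

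The slopes were then compared between ploidies and genotypes. No gene had a slope that differed between 4x and 2x plants at an adjusted p under 0.05 (0% of 15945 genes, while 908 passed an unadjusted p of 0.05), and none had a slope that differed among the 5 genotypes (0%, while 607 passed an unadjusted p of 0.05). Only edgeR was run for these differences. The slope of CCA1 was -0.84 in 2x and -0.77 in 4x, and from -0.92 in chx25-3 to -0.76 in esb1-1. FKF1 had slopes of 2.41 in 2x and 1.22 in 4x, a difference of -1.19 (adjusted p = 0.63). HAI1 had -0.77 and -0.14, a difference of 0.63 (adjusted p = 0.56). A difference that missed the threshold is not shown to be absent. Without 4x sos3-2 replicate 1, 3 genes were called between ploidies, and without 2x wild type replicate 1, 1 gene.

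Since 2x and 4x plants of a genotype did not have the same library numbers, the number also bears on the ploidy comparison in shoots. The mean number was 62.3 for 4x and 77.0 for 2x wild type, 109 and 69.7 for rhd6-3/rsl1-1, and differed by less than 10 in the other genotypes. At an adjusted p under 0.05 and a change of at least 0.5 log2, 178 genes (1.12%) differed between 4x and 2x wild type without the library number in the model and 483 (3.03%) with it. In rhd6-3/rsl1-1 the counts were 645 (4.05%) and 1410 (8.84%), in esb1-1 0 (0%, while 1641 passed an unadjusted p of 0.05) and 5 (0.0314%), in sos3-2 1 (0.00627%) under both models, and in chx25-3 0 (0%) under both, while 844 and 1347 passed an unadjusted p of 0.05. Of the genes called without and with the library number, 31 and 191 in wild type were also called for a slope. In rhd6-3/rsl1-1 these were 134 and 627, while 29.5% of all genes were called for a slope. The model with library number used 1 slope for all groups. Whether the added genes differ by ploidy or stem from that common slope was not tested. The fits with and without library number were added after the slopes had been seen.

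Roots of soil-grown plants gave 29 libraries, most of them numbered directly after a shoot library of the same group and replicate. In 1 fit of both organs, 541 of 19841 genes (2.73%) were called for a slope in roots, 269 (1.36%) rising and 272 (1.37%) falling. In 3704 genes (18.7%) the slopes of shoots and roots differed, with the more positive slope in shoots in 1706 (8.6%) and in roots in 1998 (10.1%). The fit had no term for the plant, so that a shoot and a root library of the same plant would count as independent. With the sample-number series as a factor, 174 root slopes and 787 organ differences were called, and with replicate number as a factor none of either (414 and 1602 genes passed an unadjusted p of 0.05). Of the 4711 genes called in shoots, 3491 (74.1%) had the same sign in roots, and 301 were called in roots too, 286 with the same sign. These 301 are 6.39% of the shoot calls and 55.6% of the root calls. The median root slope was 0.03 for genes rising in shoots and -0.03 for genes falling in shoots.

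CCA1 and COL2 had slopes in roots close to those in shoots. In roots CCA1 went from a median of 77.2 CPM (unscaled) in the first stretch to 3.52 in the last, with a slope of -0.79 ± 0.04, and the difference of shoots minus roots was -0.02 ± 0.06 (adjusted p = 0.82). For COL2 the root slope was -0.82 and the difference 0.02 ± 0.04. LHY fell less in roots (-0.75), with a difference of -0.43 ± 0.09 (adjusted p = 0.00027). The evening genes rose less in roots, with 0.56 for FKF1 and 0.58 for ELF4, and ELF3 (0.03) and TOC1 (0.08) were not called there. GI had a root slope of 0.36, against 0.19 in shoots, a difference that was not called (-0.16 ± 0.08, adjusted p = 0.15).

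Among called genes with a mean of at least 10 CPM in shoots, PSAO and BAM9 had the most negative differences. That of BAM9 was -0.86 ± 0.07, with 13.4 to 55.03 CPM over all root libraries. The most positive ones were those of AT4G16146 (0.85 ± 0.10) and AT1G56300 (0.83 ± 0.14), which in roots reached at most 5.71 and 16.96 CPM. The difference of PSAO, a photosystem I subunit, came from roots (root slope 1.03), where it had at most 10.7 CPM, in library 79, and no read in most libraries, while its shoot slope was 0.16.

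**Figure D5:**
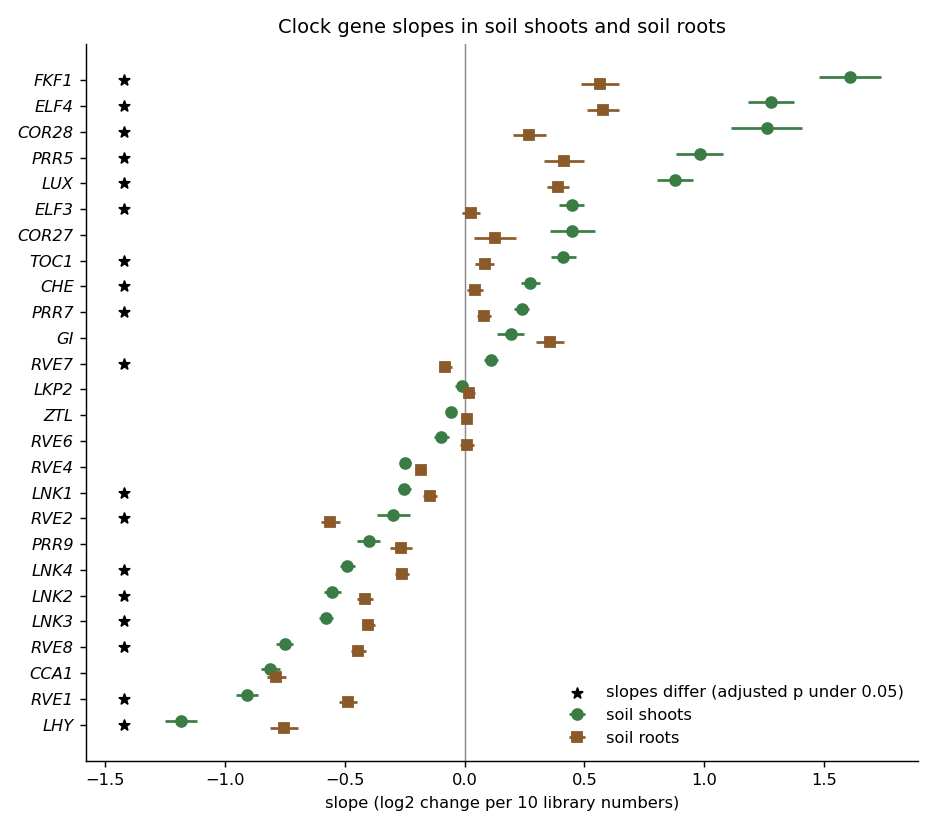
Slopes of the clock genes (log2 change per 10 library numbers, bars are standard errors) in soil shoots (green circles) and soil roots (brown squares) from 1 fit of both organs, with stars where the slopes differ at an adjusted p under 0.05 and by at least 0.1. CCA1 has slopes of -0.81 and -0.79, and the slopes of FKF1 differ by 1.04.

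Assigned reads per shoot library ranged from 4698913 to 8635531, and 19469 to 20764 genes had at least 1 read. Chloroplast and mitochondrial transcripts took 3.80 to 17.1% of the reads and moved with the library number, with medians of 14.4, 12.2 and 9.44% in the 3 stretches. With that share as a covariate, 4084 genes were called, 3372 of them called before, and the slope of CCA1 was -0.81, while GI was no longer called (slope 0.07). The lowest share was in 4x wild type replicate 3. No 2 libraries were identical. The paper's supplement states that the replicates came from 1 experiment, with 1 soil-grown plant per replicate. The p-values thus measure the spread between these plants, with each library taken as independent. They do not cover spread that libraries close in number share.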

How the data were processed

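RNA from soil-grown shoots and roots was measured by 3′ RNA sequencing (QuantSeq). The deposited values are expected counts per transcript, estimated by the authors with Salmon (version, transcript set and build not given in the sources used here). They were summed per locus and rounded to whole numbers. Genes that reached 2 CPM in 6 or more of the 29 shoot libraries were kept, scaled by TMM and fitted with edgeR 4.0.16 (quasi-likelihood F test, R 4.3.3), with library number and a factor for each genotype and ploidy group. Adjusted p-values are Benjamini-Hochberg values over all genes tested, and standard errors were derived from the slope and its F value. A bend, slopes by ploidy or genotype, and a joint fit of shoots and roots used the same test. DESeq2 1.42.0 and limma 3.58.1 were alternatives, and the scripts were tested on simulated data. Named genes were both clock lists, up to 4 members with the largest slopes of each other list, the 12 largest slopes in each direction (mean of at least 10 CPM and the same sign in 2x, 4x and the second series), 3 bends in each direction and 2 organ differences in each direction. The members and lists were chosen with earlier results of these data known. Symbols were matched to RefSeq TAIR10.1 (15783 of 15945 genes tested). Roots of plate-grown plants were not used here.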

Additional observations from a re-analysis of the deposited data

Results flagged for a closer look

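Slopes along the library number that differed between soil shoots and soil roots, by the test of the difference in the fit of both organs, were the only results that met the criteria for a closer look. In all, 3704 genes differed, 787 with the sample-number series as a factor and 0 with replicate number as a factor (1602 at an unadjusted p under 0.05), so that the differences below hold for library and replicate number together. Among the morning clock genes the difference of shoots minus roots (log2 per 10 library numbers) was -0.43 for LHY, -0.42 for RVE1, -0.31 for RVE8, -0.11 for LNK1, -0.14 for LNK2, -0.18 for LNK3, -0.23 for LNK4, 0.26 for RVE2, 0.19 for RVE7 and 0.16 for PRR7. Among the day and evening genes it was 0.57 for PRR5, 0.33 for TOC1, 0.42 for ELF3, 0.70 for ELF4, 0.49 for LUX, 1.04 for FKF1, 0.23 for CHE and 0.99 for COR28. Among other named genes it was -0.86 for BAM9, -0.87 for PSAO, 0.83 for AT1G56300 and 0.85 for AT4G16146. PSAO had at most 10.7 CPM in roots. In shoots RVE2 had a mean of 1.42 CPM, and FKF1, ELF4 and COR28 had no read in 9, 6 and 11 of 29 libraries. The sizes of these differences thus depend on the small count that the fit adds.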

How the results depend on the processing

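The 4711 shoot calls numbered 4701 with relative log expression scaling, 5338 without the CPM filter, 4818 with DESeq2, 4582 with limma-trend, 4634 with limma-voom, 4047 by rank and 6275 without a minimum slope, and 4355 to 4830 without 1 library. Without 1 library, 4146 to 4661 of the 4711 calls were kept. With the sample-number series as a factor, the counts were 1514 for the shoot slope, 149 for the bend, 174 for the root slope and 787 for the organ difference, and the second series alone gave 1880 shoot slopes. With a replicate block the counts were 11 for the shoot slope (3 rising, 8 falling), 137 for the bend, 0 for the root slope (414 at an unadjusted p under 0.05) and 0 for the organ difference (1602 at an unadjusted p under 0.05). Of the 11, the named genes were CCA1 (slope -0.69), LHY (-1.02), LNK2 (-0.51), LNK3 (-0.52), COL2 (-0.68) and ELIP2 (-1.03), the other 73 of 79 called named genes lost their call, and no day or evening clock gene was called. Libraries of the same replicate number correlated by 0.34 on average after subtraction of group means and by -0.12 at the lowest. Those of other replicate numbers correlated by -0.17 on average, and 28 of 29 were closest to their own number. Since replicate number rose with library number within groups, a slope along library number alone can give such values. After removal of that slope, the means were 0.076 for the same and -0.038 for other replicate numbers. The labels name no shared batch, so that the numbers were not taken to pair the samples, and block and library number cannot be told apart. Slopes that turned were COR27 (-0.55), NIA1 (0.052), JAZ10 (0.074), PYK10 (0.079) and AIF1 (-0.24) with the block, RVE2 (0.050) with the series factor, and JAZ5 (0.021) and EXPA16 (-0.48) within the second series. Without 1 library, the bend count ran from 577 to 1213 (606 without 4x wild type replicate 2, 635 without 4x esb1-1 replicate 2), the root count from 399 to 635, the organ difference from 3388 to 3923, the ploidy difference from 0 to 3 and the genotype difference stayed at 0. With library number as a covariate, 4x and 2x plants differed in 1410 genes in rhd6-3/rsl1-1 (645 without it), 483 in wild type (178) and 5 in esb1-1 (0). The causes of these changes were not tested. With 14 or 15 libraries per ploidy and 5 or 6 per genotype, small slope differences may be missed, and genes of few reads have slopes that depend on the added count.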

Other observations

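The soil shoot library whose title and genotype label disagreed had the lowest number of the shoots, 31, and 7277405 assigned reads. Its levels, in unscaled CPM, were 211 for CCA1, 781 for LHY, 22.1 for PRR9, 38.3 for PRR7, 6.596 for GI and 49.2 for GRP7, and FKF1 had no read.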
